A study of Mus musculus with 10 samples.

Results

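The CIDE genes Cidea, Cideb and Cidec encode 3 related proteins of the lipid droplet surface, and the liver arrays of this series measured each with 1 probe. The members were chosen by name. They are all probes outside the control set whose gene name in the scanner files is Cidea, Cideb or Cidec, or Fsp27, an older symbol of Cidec. This gave 3 probes for 3 genes, of 15809 genes tested in all. The study compared livers of mice lacking the nuclear orphan receptor TAK1/TR4, encoded by Nr2c2, with wild-type livers. The labels give C57BL/6 as the strain and 1 year as the age of both groups, with 5 arrays in each. Cy3-labelled total RNA of 1 sample was put on each array, named WT1 to WT5 and KO1 to KO5 here. The labels give neither the diet, the sex of the mice nor the allele, and do not state whether the 10 arrays stand for 10 mice. The p-values refer to the spread between these samples, which may be technical.

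CIDE proteins gather where lipid droplets touch and pass neutral lipid from the smaller droplet into the larger one, which leaves fewer and bigger droplets. Their name (cell death-inducing DFF45-like effector) comes from an N-terminal domain shared with the apoptotic DNA fragmentation factors. Cidea is best known from brown fat and appears in liver that stores fat. Cidec, also called FSP27, is abundant in white adipocytes and is likewise induced in fatty liver. Cideb is made by hepatocytes under ordinary conditions and serves the lipid loading of very-low-density lipoprotein (VLDL). TR4 binds direct repeats of the nuclear receptor half-site AGGTCA, a motif that receptors of the PPAR group also use.

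All levels below are log2 signals relative to the 75th percentile of the array, so that a value of 0 means a spot as bright as that percentile. The percentile itself lay between 950.3 and 1344 intensity units, and 51.6% to 62.9% of spots were well above background. By the barcodes of the files, slide 1 carried WT1 to WT4 and slide 2 carried WT5 with KO1 to KO3, so that slide 2 alone held both groups. KO5 and KO4 were each alone on a slide. By the file headers KO4 was scanned on a different day from all other arrays. Both probes named Nr2c2 were above background on all arrays, with differences of 0.36 ± 0.13 (SE; adjusted p = 0.144) and 0.44 ± 0.11 (adjusted p = 0.043, limma over probes) in the knockout. A cDNA probe between them, on the opposite strand, was detected above background in all 5 wild-type samples and 0 knockout samples (at least 5.41-fold lower, adjusted p = 0.00021). Hepatocyte markers were bright in both groups: 9 of 10 had a probe, each above background on all 10 arrays. Of these, 0 passed with limma and 2 had an unadjusted p under 0.05, the lowest being Asgr1, an asialoglycoprotein receptor subunit gene (-0.18 ± 0.06, adjusted p = 0.103). Counts at an unadjusted p, here and below, were not set against the share of all genes at that p. They are therefore not read as changes. The summed signal of the hepatocyte markers, in multiples of the 75th percentile, was 1228 to 1318 in wild type and 1008 to 1451 in knockout. RNA of whole liver cannot tell fewer cells of a type from less RNA per cell.

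Cidea showed the lowest difference of all 15809 genes. Its probe lies at chr18:67759992-67760051 (mm7, plus strand). The levels were 7.05, 7.48, 6.05, 5.94 and 7.31 on WT1 to WT5, and -0.39, -0.04, -2.52, -3.25 and -3.89 on KO1 to KO5. The groups did not overlap, and a gap of 5.99 separated the lowest wild-type from the highest knockout value. In intensity units the wild-type spots ran from 67347 to 191970 and the knockout spots from 70.0 to 1139. None was saturated, and all 10 were well above background, so Cidea RNA was reduced and still measurable in the knockout. The mean fell from 6.76 ± 0.72 to -2.02 ± 1.72 (SD, n = 5 each). That is a 440.2-fold decrease, with a 95% interval of 139.6-fold to 1388-fold (log2 difference -8.78 ± 0.74, SE; limma adjusted p = 0.00055; exact permutation p = 0.0079, the smallest that 5 against 5 arrays can give). With the scanner's own background correction replaced by the normexp model and quantile normalisation, the fold was 285.2.

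Cideb behaved differently. Its probe lies at chr14:50622503-50622562 (mm7, minus strand). Levels were 2.54, 2.44, 2.40, 2.29 and 2.35 on WT1 to WT5, and 2.26, 1.42, 2.21, 2.08 and 2.40 on KO1 to KO5. KO5 lay inside the wild-type range, the other 4 knockout arrays lay below it, and KO2 was the lowest. The mean was 2.40 ± 0.09 in wild type and 2.07 ± 0.38 in knockout (SD, n = 5 each). The difference of -0.33 ± 0.17 (SE) did not pass the test across all genes (limma adjusted p = 0.258), although the exact permutation test of this gene by itself gave an unadjusted p = 0.032. Its 95% interval, -0.70 to 0.04, spans a 1.62-fold decrease and a small increase. Without KO2 the difference was -0.17 (adjusted p = 0.255). The data therefore do not settle whether Cideb differed, but the interval excludes a decrease of the size seen for Cidea or Cidec.

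Cidec fell as well. Its probe lies at chr6:113585627-113585686 (mm7, minus strand). The 2 CIDE probes whose target sequence is shown here, to identify the stretch of RNA that was measured, read 5′ to 3′ as follows.
Cidec: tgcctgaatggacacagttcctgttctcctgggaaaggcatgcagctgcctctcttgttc
Cideb: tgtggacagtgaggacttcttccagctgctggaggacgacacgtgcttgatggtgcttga

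Cidec levels were 4.54, 4.36, 3.24, 3.51 and 4.66 on WT1 to WT5, against -0.40, 1.11, -1.54, -1.80 and -1.29 on KO1 to KO5. Here too no knockout array reached the wild-type range, the gap being 2.13. The mean went from 4.06 ± 0.64 to -0.78 ± 1.18 (SD, n = 5 each), a 28.7-fold decrease with a 95% interval of 12.5-fold to 66.0-fold. The log2 difference was -4.85 ± 0.54 (SE; limma adjusted p = 0.0017; exact permutation p = 0.0079), the fourth lowest of all genes. Intensities were 11481 to 24329 in wild type and 299.9 to 2529 in knockout, above background on every array.

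**Figure D1:**
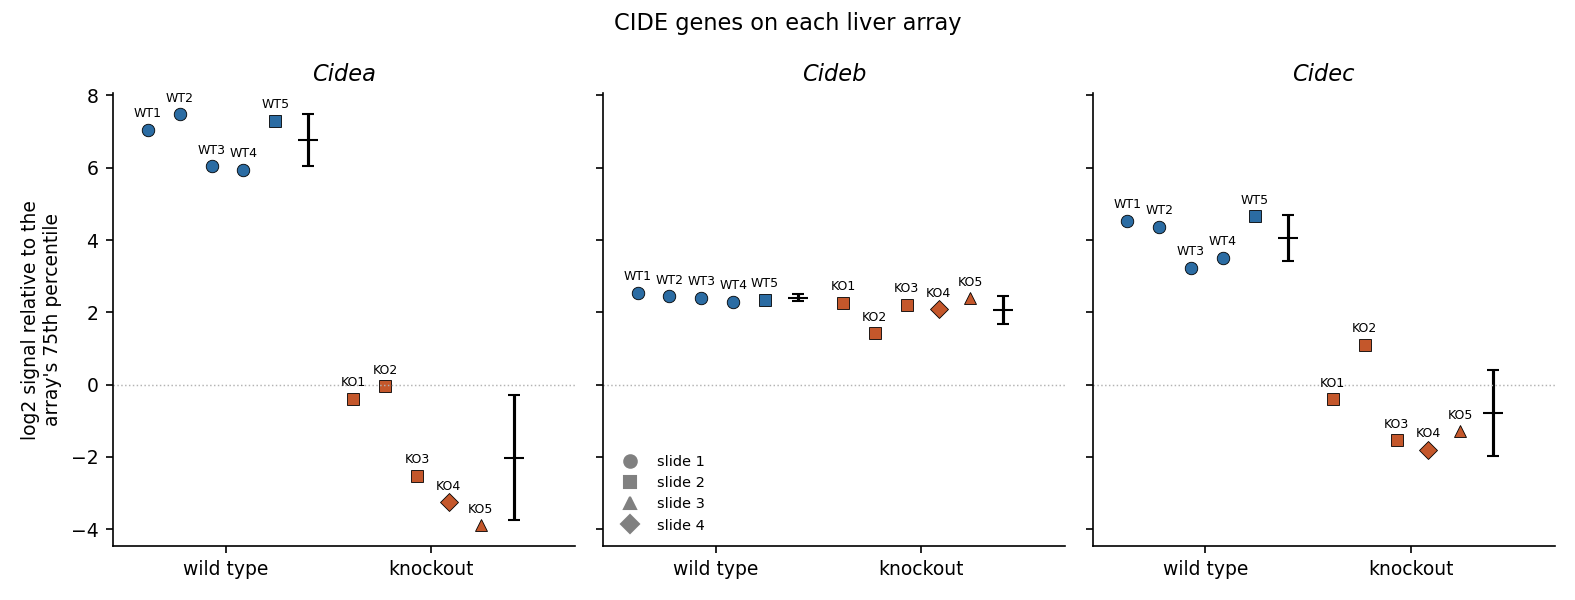
Log2 signal of Cidea, Cideb and Cidec relative to the 75th percentile of each array (vertical axis), with 1 point per array, the shape giving the slide and the bar the mean ± SD of the 5 arrays of a group. Cidea and Cidec points of the knockout lie below every wild-type point, while the Cideb groups overlap.

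Against this background, 5.91% of all genes tested changed in either direction (adjusted p under 0.05) and 3.48% were lower. The groups did not overlap for 9.61% of genes, with the knockout lower for 5.43%. Of the 3 CIDE genes, 2 fell, 0 rose and 1 did not pass.

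The members also differed from each other in the size of the change, which was tested on the difference of their log2 values within each array. The change of Cidea minus that of Cidec was -3.94 ± 0.44 (SE), so that Cidea fell 15.3-fold further. Within arrays this difference ran from 2.43 to 3.11 in wild type and from -2.60 to 0.01 in knockout, without overlap. Cidea fell by more than Cideb changed, at -8.45 ± 0.94, and Cidec likewise, at -4.52 ± 0.73. For each of these 3 comparisons the exact two-sided permutation p was 0.0079, also after adjustment over the 3.

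Cidea and Cidec were high and low on largely the same arrays within each genotype. Among wild-type arrays both were lowest on WT3 and WT4, and among knockout arrays both were highest on KO1 and KO2. KO5 had the lowest Cidea level but not the lowest Cidec level, which was on KO4. The groups lie far apart and each has 5 arrays, so this relation was not tested. The SD of the knockout was 2.39 times that of wild type for Cidea, 1.84 times for Cidec and 4.13 times for Cideb. Without KO2 these ratios were 2.11, 0.949 and 1.39, so that the wider spread of Cidec and most of that of Cideb rested on that array. Over all genes the median SD was 0.14 in wild type and 0.23 in knockout.

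**Figure D2:**
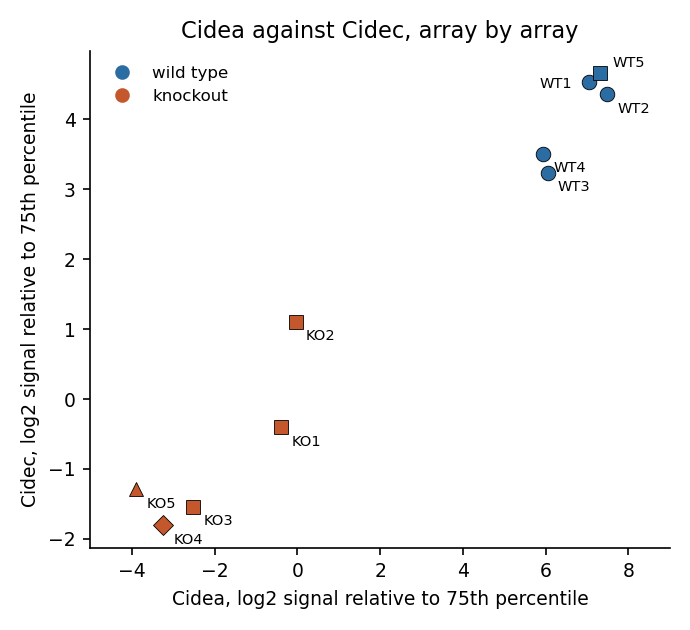
Cidea (horizontal axis) against Cidec (vertical axis), both as log2 signal relative to the array's 75th percentile, with 1 labelled point per array and the shape giving the slide. WT3 and WT4 are the lowest wild-type points and KO1 and KO2 the highest knockout points on the Cidea axis.

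Genotype was largely split by slide. Comparing KO1 to KO3 with WT5, all on slide 2, gave differences of -8.29 for Cidea, -4.93 for Cidec and -0.39 for Cideb, none of which passed with these 4 arrays (adjusted p = 0.459, 0.863 and 0.999). With slide as a fixed block the genotype difference comes from this same comparison, with 1 wild-type array whose spread is taken from the other arrays. Under that fit, as at each mention of it below, the lone array is assumed to vary like the rest. Cidea kept its call (adjusted p = 0.035) and Cidec lost it (-4.93 ± 0.94, adjusted p = 0.146). Leaving out any 1 array left both calls in place, with differences from -9.28 to -8.31 for Cidea and from -5.32 to -4.59 for Cidec. The lowest of each was without KO2, the knockout array with the highest levels of both.

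**Figure D3:**
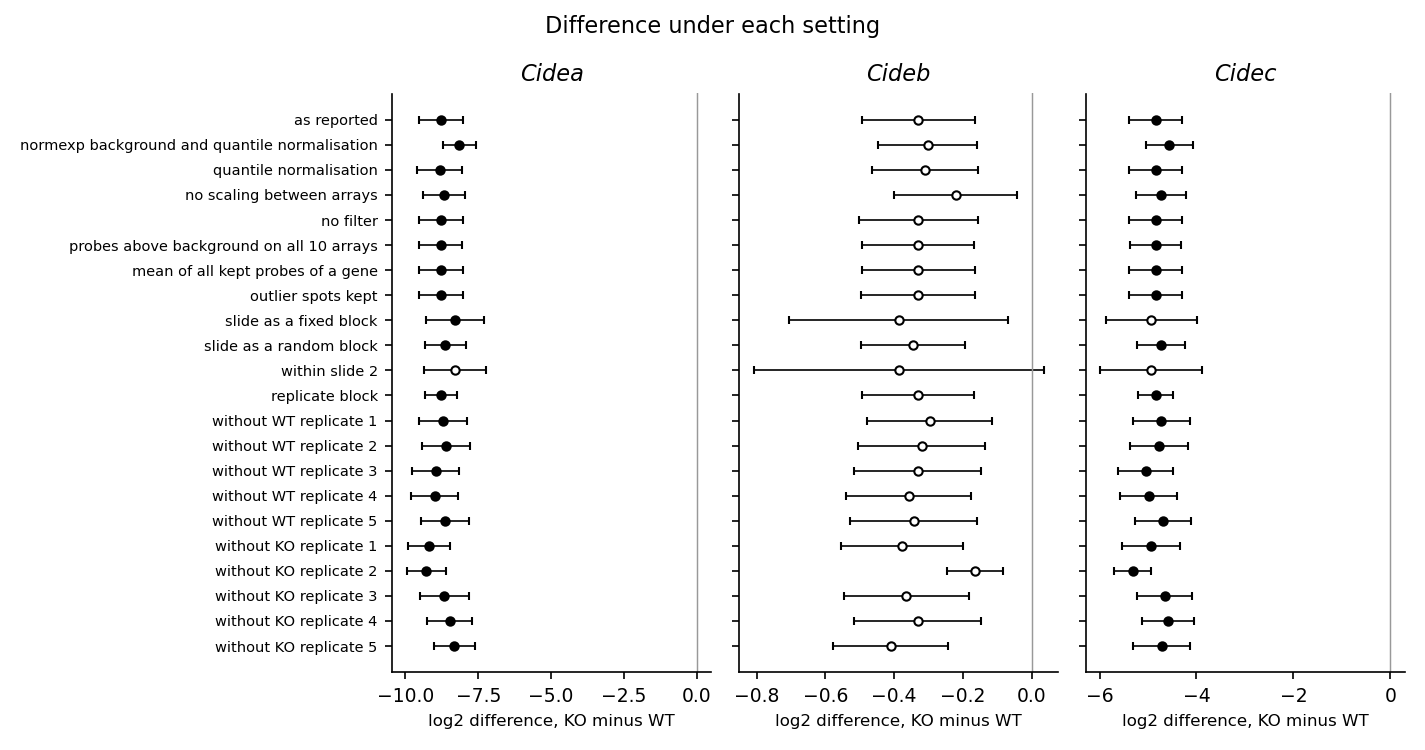
Log2 difference of knockout minus wild type (horizontal axes, each gene on its own scale) with its standard error, for the fit as reported and for 21 other settings. Filled points passed an adjusted p of 0.05, and those of Cidea and Cidec lie far below 0 under every setting, although Cidea is open within slide 2 and Cidec with slide as a fixed block or within slide 2.

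The sequence before the start site was examined for Cidec, a member that fell, and for Cideb, which did not pass. No sequence of Cidea is printed here, and its promoter was not analysed. Windows from 250 bases before to 50 bases after each RefSeq start (GRCm38.p6) are printed with every GGTCA in capitals, the last 5 bases of the half-site, on either strand (TGACC is its reverse complement). RefSeq gives Cidec 2 starts 996 bases apart.
Cidec, upstream start, chr6:113435711-113436010, minus strand: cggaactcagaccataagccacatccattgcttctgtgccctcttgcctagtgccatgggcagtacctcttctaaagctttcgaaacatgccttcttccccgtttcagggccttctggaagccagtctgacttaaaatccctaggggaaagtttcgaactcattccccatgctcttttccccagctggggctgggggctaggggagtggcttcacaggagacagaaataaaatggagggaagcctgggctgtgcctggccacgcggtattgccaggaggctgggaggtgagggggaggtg
Cidec, downstream start, chr6:113434715-113435014, minus strand: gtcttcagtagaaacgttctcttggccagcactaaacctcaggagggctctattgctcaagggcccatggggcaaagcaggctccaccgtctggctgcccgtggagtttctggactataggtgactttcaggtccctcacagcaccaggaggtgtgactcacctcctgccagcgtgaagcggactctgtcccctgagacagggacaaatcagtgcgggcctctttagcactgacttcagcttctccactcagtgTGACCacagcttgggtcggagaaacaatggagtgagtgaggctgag
Cideb, chr14:55758375-55758674, minus strand: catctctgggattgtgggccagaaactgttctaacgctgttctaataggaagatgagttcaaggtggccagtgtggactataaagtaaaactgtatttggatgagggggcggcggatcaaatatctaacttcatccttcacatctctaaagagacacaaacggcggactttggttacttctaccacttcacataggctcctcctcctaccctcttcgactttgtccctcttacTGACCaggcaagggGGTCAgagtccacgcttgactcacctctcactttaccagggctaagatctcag

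None of the 3 windows held AGGTCA on either strand, which 16.3% of 32851 windows of this length do, or its direct repeat with 1 base between the copies (DR1), held by 0.0396%. GGTCA, which every AGGTCA contains, occurred 0, 1 and 2 times in the order printed and was present in 40.5% of all windows. These counts say only which letters are in the windows. Which start the measured Cidec RNA came from was not determined.

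The genes around each member were set beside it, by the probe coordinates of the files and chosen after the values were seen. Tubb6, a beta-tubulin gene whose probe lies 34900 bases from that of Cidea, fell 1.95-fold (-0.96 ± 0.15, SE; limma adjusted p = 0.0087). Its levels were 2.04 to 2.58 in wild type and 0.93 to 1.75 in knockout, without overlap. Afg3l2, a mitochondrial protease gene 37612 bases away, fell 1.27-fold (-0.34 ± 0.07; adjusted p = 0.020), from 1.11 to 1.32 in wild type to 0.83 to 0.96 in knockout. Within slide 2 these were -0.81 and -0.47. Over the 10 alternatives that kept all arrays, Tubb6 differed by -0.97 to -0.53 and Afg3l2 by -0.47 to -0.23. Leaving out any of 3 arrays ended the call of Afg3l2 (highest adjusted p = 0.065), and neither passed with slide as a fixed block (adjusted p = 0.479 and 0.304). Impa2, an inositol monophosphatase gene on the other flank, differed by -0.46 ± 0.22 (adjusted p = 0.234). Within 1 Mb of Cidea these were the 2 changed genes of 18 tested, or 11.1%, beside 5.91% of all genes.

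Beside Cidec, Rpusd3 (0.09 ± 0.09) and Jagn1 (0.11 ± 0.08), the nearest named genes on either side, did not pass. Within 1 Mb 1 of 31 genes changed, or 3.23%, beside 5.91% of all genes. It was the calcium pump gene Atp2b2, which was lower. Cidec and Nr2c2 share a chromosome, with 21.3 Mb between their probes. Of 63 tested genes in that interval 5 changed, or 7.94%, beside 5.91% of all genes. Next to Cideb, Nop9, a gene of ribosome assembly 1478 bases away, differed by 0.00 ± 0.07 (adjusted p = 0.981), and the leukotriene B4 receptor genes Ltb4r1 (0.67 ± 0.18; adjusted p = 0.059) and Ltb4r2 (0.51 ± 0.25; adjusted p = 0.245) had positive differences that did not pass.

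Genes named in the literature as transcription regulators of the CIDE genes or of lipid metabolism moved less than Cidea and Cidec. Of 25 listed, 24 were tested, and 3 fell and 0 rose, with a median of -0.10 against 0.01 over all genes (3.48% of all genes were lower). Pparg, the adipogenic nuclear receptor that drives Cidea and Cidec in fat cells, had levels of 2.41 to 2.77 in wild type and 1.51 to 1.85 in knockout. It fell 1.90-fold (-0.93 ± 0.10, SE; limma adjusted p = 0.0013; -0.96 within slide 2). Srebf1, which encodes the lipogenic factor SREBP1, fell 2.32-fold (-1.21 ± 0.28; -1.23 within slide 2), and KO2, at 4.62, was its lowest array. Ppara, the receptor of the fasting response, fell 1.52-fold (-0.60 ± 0.15; -0.73 within slide 2), with overlapping groups. The calls of Srebf1 and Ppara each depended on 8 arrays, the absence of any 1 of which ended it (highest adjusted p = 0.096 and 0.108), and all 3 calls were lost with slide as a fixed block (adjusted p = 0.180 for Pparg, 0.555 for Srebf1 and 0.530 for Ppara). Creb3l3, which encodes the hepatocyte factor CREBH, differed by -0.11 ± 0.10 (adjusted p = 0.545), and the coactivator gene Ppargc1a by -0.21 ± 0.20 (adjusted p = 0.566).

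No change was detected among partners that bind CIDE proteins. Of 10 listed, 9 were tested and 0 passed with limma. At an unadjusted p under 0.05 there was 1, Tbc1d4 (-0.28 ± 0.11; adjusted p = 0.175), which encodes a Rab GTPase-activating protein. The list median was 0.03. Plin1, the adipocyte coat protein that activates Cidec-driven fusion, was above background on 1 of 10 arrays, a knockout array, and could not be tested. The other genes with the CIDE-N domain, Dffa and Dffb, which encode the inhibitor and the nuclease of apoptotic DNA fragmentation, differed by 0.00 ± 0.07 and 0.00 ± 0.13 (adjusted p = 0.997 for both). Of 20 cell death genes 19 were tested and 0 passed with limma, with a median of -0.07. At an unadjusted p under 0.05 there were 4, a count not set against the share of all genes. The 1 with the lowest p was Xiap, the caspase inhibitor (0.41 ± 0.12; adjusted p = 0.070).

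The route that Cideb serves was examined through 18 genes of VLDL assembly and of COPII vesicles, which carry VLDL precursors out of the endoplasmic reticulum. All 18 were tested, 2 fell and 0 rose (3.48% of all genes were lower), and the median was 0.01. Apob, the structural protein of VLDL, differed by 0.07 ± 0.10 (adjusted p = 0.719), and Mttp, the lipid transfer protein, by 0.04 ± 0.13 (adjusted p = 0.865). The 2 that fell encode coat subunits, Sec24a (1.32-fold, -0.40 ± 0.08; -0.43 within slide 2) and Sec23a (1.20-fold, -0.26 ± 0.06; -0.27 within slide 2). The call of Sec24a ended when any of 6 arrays was left out and that of Sec23a when any of 8 was (highest adjusted p = 0.058 and 0.094). Averaging all kept probes of each gene gave -0.20 for Sec24a and -0.22 for Sec23a (limma adjusted p = 0.167 and 0.091). Without scaling between arrays they differed by -0.30 and -0.15 (adjusted p = 0.330 and 0.586). Neither call held under these 2 settings. With slide as a fixed block neither passed (adjusted p = 0.484 and 0.574).

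Some other genes of the droplet surface and of triglyceride turnover fell with Cidea and Cidec, while most of those listed did not pass. Of 24 listed, 23 were tested, 7 fell and 0 rose (3.48% of all genes were lower). The median was -0.37, and -0.39 within slide 2. Mogat1, which makes diacylglycerol from monoacylglycerol, fell 12.5-fold (-3.64 ± 0.28). That value rests on WT1 to WT4, since the WT5 spot was set to missing as an outlier. Plin4, a droplet coat protein, fell 9.91-fold (-3.31 ± 0.47; -3.19 within slide 2). The fat-inducing protein gene Fitm1, which partitions triglyceride into droplets, fell 2.26-fold (-1.18 ± 0.18; -1.36 within slide 2). The other 4 were Plin2 (1.60-fold), Fitm2 (1.55-fold), Mgll (1.45-fold) and Pnpla3, which was above background on 2 knockout arrays and at least 8.74-fold lower. Mgll and Pnpla3 each failed the test when any of 8 arrays was left out (highest adjusted p = 0.102 and 0.075). With slide as a fixed block all of these but Mogat1 lost their calls (lowest adjusted p = 0.205, for Fitm2), and Mogat1 could not be fitted. Pnpla2, the main triglyceride lipase, differed by 0.03 ± 0.10 (adjusted p = 0.866). Among 15 targets of PPARG in fat storage 13 were tested, and Mogat1, Plin2 and Plin4 are also in the droplet list. Of those tested 5 fell and 0 rose, beside 3.48% of all genes that were lower, with a median of -0.68. The 5 were Mogat1, Plin2, Plin4, Cfd and the fatty acid transporter gene Cd36 (-2.20 ± 0.37), which did not pass with slide as a fixed block (adjusted p = 0.372). In the other direction, the lipase gene Lpl differed by 0.86 ± 0.31 (adjusted p = 0.128). Pck1, a gene of gluconeogenesis and glycerol synthesis, differed by 0.46 ± 0.13 without overlap of the groups (adjusted p = 0.059).

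**Figure D4:**
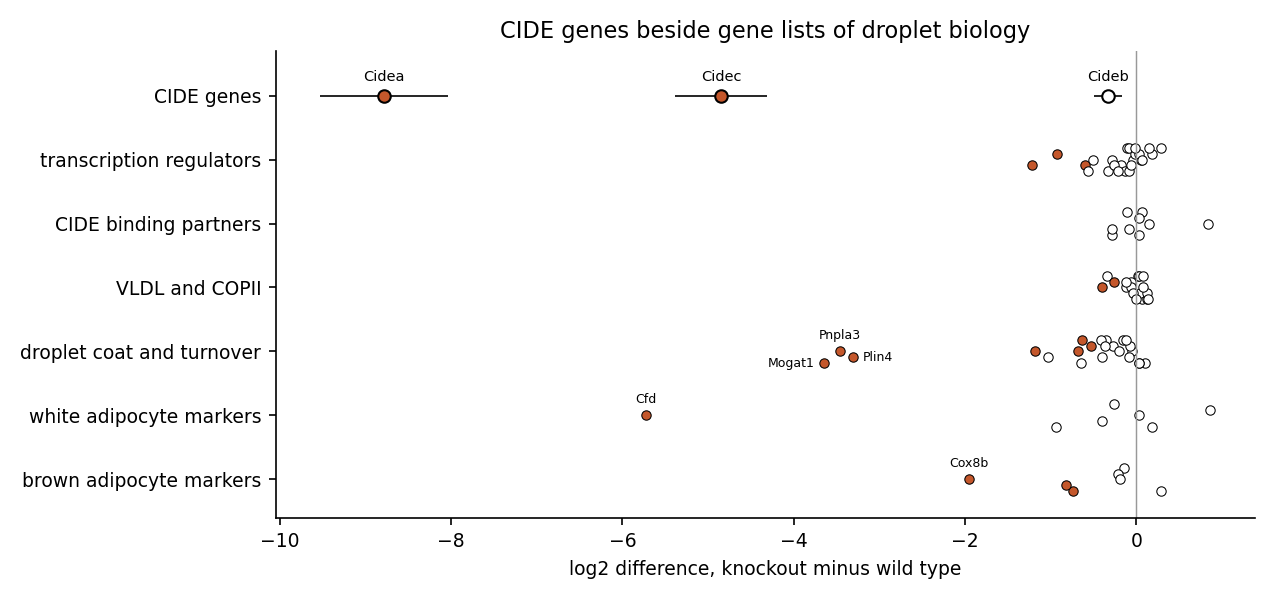
Log2 difference of knockout minus wild type (horizontal axis) for the CIDE genes, with standard errors, and for each tested member of 6 gene lists (rows). Filled points passed an adjusted p of 0.05, and those of Cidea at -8.78 and Cfd at -5.72 lie farthest to the left. Pnpla3 and Cox8b are drawn at their fitted values, although most or all of their knockout arrays were not above background.

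Because Cidea and Cidec are also adipocyte genes, markers of fat cells were read on the same arrays. All 12 white adipocyte markers had probes, and 7 of them gave signal above background on each of the 10 arrays. The hormone genes Adipoq and Lep, which define the white adipocyte, were above background on 0 of 10 arrays, as was Slc7a10. Retn, the resistin gene, was detected in 3 wild-type but 0 knockout samples, and Plin1 in 0 and 1. Neither of them met the filter, so their changes were not tested. The summed signal of the list, in multiples of the 75th percentile, was 219.2 to 288.7 in wild type and 58.8 to 210.4 in knockout. Most of it was 1 gene, the carbonic anhydrase gene Car3, at 195.6 to 267.6 in wild type and 33.8 to 191.9 in knockout, which did not pass the test (-0.93 ± 0.42, adjusted p = 0.213). Without Car3, a choice made after seeing the data, the sums were 23.6 to 30.6 and 18.5 to 26.4 and overlapped. Of the 7 tested 4 had a negative difference and 1 fell, beside 3.48% of all genes that were lower. It was Cfd, the adipsin gene, which fell 52.8-fold (-5.72 ± 0.77; adjusted p = 0.0037; -7.17 within slide 2). With normexp and quantile normalisation it fell 30.6-fold, and with slide as a fixed block it did not pass (adjusted p = 0.0999). Its levels were 1.48 to 4.82 in wild type and -4.39 to -0.47 in knockout. Fabp4 differed by -0.25 ± 0.14 (adjusted p = 0.300), Lipe by -0.40 ± 0.13 (0.104), Npr3 by 0.19 ± 0.26 (0.697), and Lpl and Pnpla2 by the positive values given above. The Lipe value rests on 4 wild-type arrays.

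Of 12 brown adipocyte markers on the array, Ucp1, the uncoupling protein that defines the brown adipocyte, Adrb3, Zic1 and Otop1 were above background on 0 of 10 arrays. Of 7 tested 3 fell, but 1 of them, Eva1a, is not the brown fat marker known as Eva1, which is another gene (Mpzl2). Without it 2 of 6 fell, beside 3.48% of all genes. Cox8b, a cytochrome c oxidase subunit gene, gave signal above background in all 5 wild-type samples and in 0 knockout samples (at least 2.91-fold lower, adjusted p = 0.014). The bound belongs to this scaling, and with normexp and quantile normalisation the fitted fold was 1.95. Cox7a1, another subunit gene, fell 1.66-fold (-0.73 ± 0.14; -0.93 within slide 2) and Eva1a, an autophagy-related gene, 1.76-fold (-0.82 ± 0.19; -0.77 within slide 2). Leaving out any of 2 arrays ended the call of Cox7a1, and any of 8 that of Eva1a (highest adjusted p = 0.054 and 0.093), and all 3 lost it with slide as a fixed block (lowest adjusted p = 0.298). The summed signal was 184.3 to 209.7 in wild type and 100.4 to 210.2 in knockout, the latter range spanning the former. Without Eva1a it was 157.2 to 181.3 and 89.7 to 191.7. Most of that remainder was Slc27a2 and Elovl3, which did not pass (limma adjusted p = 0.290 and 0.897). Leaving these out as well was a choice made after seeing the data. The sums were then 3.54 to 3.83 in wild type and 1.998 to 3.94 in knockout, the latter range again spanning the former. What part the marker genes that moved have in the falls of Cidea and Cidec was not tested. Of 10 macrophage markers 1 rose, Cd163 (0.91 ± 0.22; 0.80 within slide 2), a call that ended when any of 7 arrays was left out (highest adjusted p = 0.110) or with slide as a fixed block (adjusted p = 0.627). Among all genes 2.44% were higher. The summed signal of the macrophage markers was 52.6 to 112.7 in wild type and 47.5 to 107.8 in knockout.

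The genes whose pattern was most like that of each member were found by the Pearson correlation of log2 levels over the 10 arrays, among 14994 genes with signal in both groups. The arrays share slides and scaling and fall into 2 genotypes, and the values are given as a description. For Cidea and Cidec a high value largely records the gap between genotypes, whereas for Cideb the leading genes were nearly as high after the group means were taken off. Much of the spread of Cideb came from KO2: its knockout SD was 0.38 with that array and 0.13 without it. The correlations were not recomputed without KO2. For Cidea the highest was Cidec itself (r = 0.985), followed by Chchd6 (0.984), Bpnt2 (0.980), Impact (0.979) and Sdr39u1 (0.977). For Cidec these were Lgals1 (0.988), Cidea (0.985), Ifi27l2b (0.982), Bdh1 (0.981) and Impact (0.980). Lgals1, which encodes galectin-1, changed by -2.42 ± 0.26 on the log2 scale, and Sdr39u1, a dehydrogenase-family gene, changed by -2.96 ± 0.18. For Cideb they were Sds (0.983), Spc24 (0.980), Zranb3 (0.979), Ldah (0.971) and Tst (0.969), none of which passed the test. Cideb correlated with Cidea at 0.419 and with Cidec at 0.346.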

How the data were processed

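Liver RNA of 5 wild-type and 5 knockout samples was measured on 1-colour Agilent arrays. The authors quantified the images with Feature Extraction (version 9.5.1.1 in the headers, 9.5 in the submitters' processing notes). Per the file headers, spatial and multiplicative detrending had been applied to the deposited intensity of each spot, array by array. The deposited series table held the same intensities, the largest difference being 0. Its scale is linear, uncentred, with column medians of 80.0 to 107.6. Other values from the deposited files were flags for background, saturation and outlier spots.

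The log2 intensity, without a pseudocount, was set relative to the 75th percentile of the non-control spots of its array. Outlier spots were set to missing and replicate spots averaged. Of 41174 probes, 23266 passed the filter, being well above background on 4 or more arrays of a group, and each of 15809 genes was represented by its brightest probe. Symbols were updated through a RefSeq table (GRCm38.p6, names only): 22951 probes matched by accession, 6659 by current and 3109 by older symbol, and 8455 kept their name. Limma 3.58.1 (R 4.3.3) compared the groups with genotype as the only term and Benjamini-Hochberg adjustment over all genes. Changed, fallen or risen means an adjusted p under 0.05. Tests were two-sided, and intervals of differences are at 95%. The fit was tested on simulated data. For a gene above background on at most 2 arrays of a group, the fold is a bound against the lowest signal above background. The number of arrays limits the precision.

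The members, gene lists and tests were chosen with earlier results of these data known. Named genes are the members, the probes of Nr2c2, up to 3 changed genes of each list with the smallest p or otherwise the 1 with the smallest p, 11 fixed readouts, and the 5 genes most like each member over the arrays, before and after group means are taken off. Pnpla2, Fabp4, Car3, Lpl, Lipe, Npr3, Pck1, Retn, Slc27a2, Elovl3, the remaining changed list members, undetected markers and the chromosomal neighbours were named outside that rule, after their values were seen. Whether the probes lie in exons or untranslated regions was not determined, since no genome of build mm7 was used here. Alternatives covered background correction, normalisation, filters, probe choice, outlier spots, slide, replicate number and leaving out each array. Replicate numbers are shared by the groups, and the samples were treated as unpaired. The correlation of deviations of same-numbered arrays ran from -0.21 to 0.04. This cannot show whether the samples were paired, since same-numbered arrays lay on different slides.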

Additional observations from a re-analysis of the deposited data

Results flagged for a closer look

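Among the CIDE genes and the genes named from the lists, 56 sets of 5 or 4 arrays were examined for an array far from the rest of its group. Chance flags about 1 such set in 20. No CIDE gene had one. Plin4 was 1.54 on KO2, against -1.14 to -0.56 on the other knockout arrays. Creb3l3 was 5.02 on KO2, against 5.36 to 5.48. Sec24a was 2.16 on KO1, against 1.84 to 1.91. Asgr1 was 6.99 on WT1, against 6.85 to 6.88 on the other wild-type arrays. Ucp1 was -5.86 on KO3, against -7.02 to -6.75, all of them below background.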

How the results depend on the processing

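Under 10 alternatives other than leaving out an array or taking slide 2 alone, Cidea differed by -8.82 to -8.16 (highest adjusted p = 0.035) and Cidec by -4.93 to -4.56, and all calls held except that of Cidec with slide as a fixed block (-4.93, adjusted p = 0.146). Within slide 2 both calls were lost (-8.29 and -4.93), where 4 arrays were compared. Cideb passed under none of the alternatives run (-0.41 to -0.17 without each array). Leaving out each array gave -9.28 to -8.31 for Cidea, -5.32 to -4.59 for Cidec, -4.25 to -3.59 for Cidea minus Cidec, -9.11 to -7.90 for Cidea minus Cideb and -5.15 to -4.26 for Cidec minus Cideb. Within slide 2 these 3 differences were -3.35, -7.90 and -4.55, where 4 splits allow no p under 0.25. With the replicate block the same 3 were -3.94, -8.45 and -4.52 (exact permutation p = 0.0625, the smallest that 32 sign changes allow), and the calls of Cidea and Cidec held (adjusted p = 0.0081 and 0.0093).

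The count of changed genes was 935 as reported, 470 without scaling between arrays (which moved the median of all genes to 0.12), 247 with no filter, 35 with slide as a fixed block, 1451 with slide as a random block (estimated correlation -0.09), 2 within slide 2 (700 at an unadjusted p under 0.05), 166 with the replicate block, and 297 to 1191 without each array (446, 297, 502, 443 and 462 without WT1 to WT5 in turn, 544 without KO4 and 493 without KO5). The cause of these shifts was not tested. Genes near 0 changed sign: Apob (-0.070 with slide as a fixed block and within slide 2, -0.011 to 0.122 without each array), Creb3l3 (0.0014 without scaling), Dffa (-0.0048 with quantile normalisation, -0.0049 with slide as a random block, -0.023 to 0.042 without each array), Dffb (0.11 without scaling, 0.24 with slide as a fixed block and within slide 2, -0.097 to 0.057 without each array), Mttp (-0.0027 with slide as a fixed block and within slide 2, -0.018 to 0.123 without each array) and Ppargc1a (0.046 with slide as a fixed block and within slide 2). None of these passed the test. For single genes named beside the members, 104 of the recomputed values lost a call and 2 gained one.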

Other observations

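After each group's mean was taken from its own arrays, so that only the variation within genotypes was left, the genes most like Cidea over the 10 arrays were an unnamed cDNA (AK085106, r = 0.959), Bzw2 (0.946), Nt5e (0.939), the unnamed transcript NAP018089-001 (0.937) and Nbn (0.932). Nt5e encodes a surface nucleotidase that makes adenosine. For Cidec they were Btd (0.941), Ifi27l2b (0.940), Nfe2 (0.938), Cgref1 (0.938) and Parp3 (0.937). Ifi27l2b, an interferon-inducible family gene, also fell in the knockout (-2.10 ± 0.34, limma adjusted p = 0.0095). Cidec ranked 47th for Cidea on this measure, at 0.863. Cideb gave negative values with both, -0.520 with Cidea and -0.626 with Cidec, and was most like Sds (0.976), the serine dehydratase gene, Spc24 (0.973), Zranb3 (0.971), Ldah (0.969), a lipid droplet hydrolase gene, and Rfc5 (0.968). On KO2 Cideb had its lowest level (1.42), while Cidea (-0.04) and Cidec (1.11) had their highest knockout levels. The correlations were not recomputed without that array. With 5 arrays in each group these values are descriptions.

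Of the 50 tested genes within 1 Mb of Cideb 3 changed, all lower, a share of 6.0% beside 5.91% of all genes. They were Fitm1, Emc9 and Sdr39u1, whose levels were 2.34 to 2.80 in wild type and -0.84 to 0.19 in knockout.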
